A study of Mus musculus with 23 samples.

Results

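The genes described here are a list of 35 liver genes of fatty acid oxidation and of the response to the nuclear receptor PPAR-alpha, measured in the livers of mice with and without P2ry13. The list was fixed by gene name: carriers and enzymes of mitochondrial and peroxisomal beta-oxidation, acyl-CoA thioesterases, the electron transfer proteins, PPAR-alpha itself and fasting-responsive genes. A gene counted as measured when at least 1 probe set of the array carried its symbol and no other. That held for 31 of the 35, out of 19147 symbols measured in the same way, and each was read on its brightest probe set. Acsl1, Acadm, Hadh and Acaa1a had no such probe set and were not analysed here. Of the 31 genes, 25 had 1 probe set and 6 had more.

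Fatty acids that reach a hepatocyte are bound by the carrier Fabp1, activated to acyl-CoA and carried across the mitochondrial membranes as acylcarnitines, with Cpt1a as the regulated entry step. Inside, a cycle of dehydrogenases, hydratases and thiolases shortens the chain, while very long and branched chains are first shortened in peroxisomes. Acyl-CoA thioesterases release free fatty acid from acyl-CoA and so set how much of it stays activated. In fasting, PPAR-alpha, with its coactivator Ppargc1a, raises the transcription of many of these genes and of the hepatic hormone Fgf21.

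P2RY13, also called GPR86, is a Gi-coupled receptor for ADP that is known in liver for its part in the uptake of high-density lipoprotein. Total liver RNA was measured on 1 array per sample in 4 groups: female wild type (WT, n = 6), female GPR86 knockout (KO, n = 6), male WT (n = 5, replicates 2 to 6) and male GPR86 KO (n = 6). Allele, strain, age, feeding state and shared processing plates are not given in the labels. The design asks how the liver transcriptome differs by genotype in each sex. Values are log2 of the deposited array intensity, and a difference of 1 on this scale is a ratio of 2. Because probe sets differ in how they bind, levels are compared between groups and never between genes.

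The targeted gene read 6.03 to 6.42 in the 6 female WT arrays and 5.06 to 5.22 in the 6 female KO arrays, and 5.80 to 6.34 in male WT against 5.07 to 5.34 in male KO, so no KO array overlapped a WT array. Xist and 3 Y-linked genes separated the 12 female from the 11 male arrays. Medians of the 23 arrays lay between 19.5 and 21.1 on the linear scale, and pairs of arrays correlated at 0.983 to 0.995 across probe sets. Probe sets of transcripts that a sample lacks still gave a signal: 4 Y-linked probe sets read 2.53 to 3.69 in females, and Xist read 4.14 to 5.22 in males. In 3 female arrays (WT replicates 1 and 4, KO replicate 6) the skeletal muscle gene Acta1 read 7.67 to 9.97, against 5.42 to 6.27 in the other 20. In 3 further arrays (female WT replicate 3, female KO replicate 3, male KO replicate 4) the bile duct keratin Krt19 read 5.55 to 6.64, against 3.54 to 4.52. The 4 measured hepatocyte markers together read 15.11 to 15.33 in every group on a log2 scale of their summed signal, so the labelled tissue's markers were present in all arrays.

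Loss of P2ry13 changed none of the 31 genes past the test in either sex. The test was limma's moderated test with Benjamini-Hochberg adjustment over all 38385 probe sets, and a gene was called when its adjusted p was under 0.05. In females 0 of 31 genes were called, where 0.0547% of all probe sets were. In males 0 of 31 were called against 0.0313% of probe sets, and for the average over the sexes 0 of 31 against 0.0808%. The smallest adjusted p among the genes was 0.66 in females, 0.687 in males and 0.643 for the average. At an unadjusted p under 0.05 there were 3 genes in females, 3 in males and 1 for the average, beside 5.87%, 6.14% and 6.91% of all probe sets. The median log2 difference, KO minus WT, over the 31 genes was -0.01 in females and -0.04 in males, and over all probe sets it was -0.01 and 0.00.

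The spread allowed only limited changes for most of the list. In females the 95% confidence interval of the KO minus WT difference lay within 0.5 log2 units of 0 for 25 of 31 genes and within 0.3 for 22. In males it lay within 0.5 for 25 genes and within 0.3 for 21, and for the average over the sexes within 0.5 for 30. The median standard error of the difference was 0.09 in each sex. The genes with wide intervals were those that varied within groups, among them Pdk4, Decr2, Acot1 and Acot3.

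**Figure D1:**
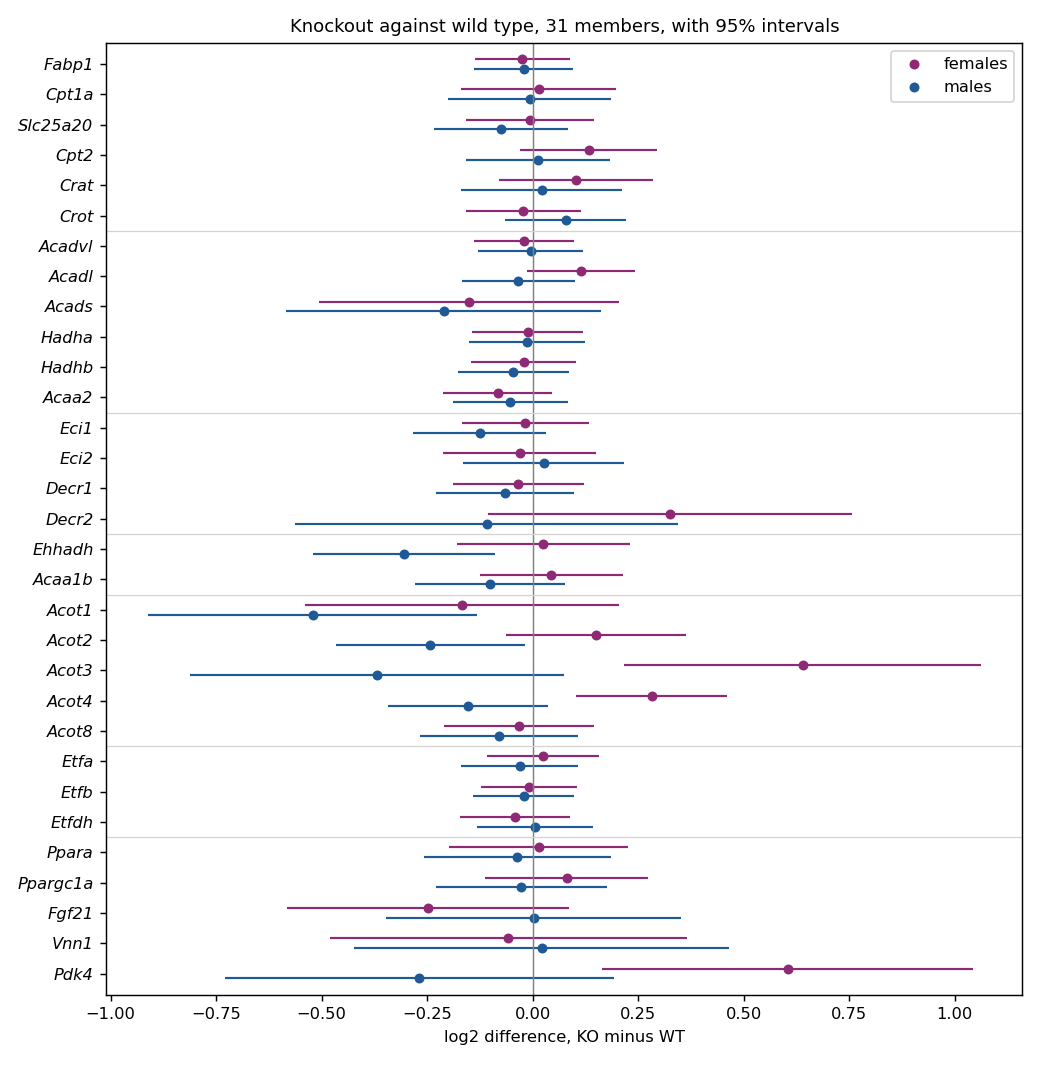
The log2 difference between KO and WT (horizontal axis) is plotted for each of the 31 genes, grouped by role, with its 95% confidence interval, in females and in males. Most points lie close to 0, no difference passed the adjusted test, and the widest departures are those of Acot3 and Pdk4 in females and Acot1 in males.

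Cpt1a, which makes the acylcarnitines that enter the mitochondrion, was 10.98, 11.11 and 11.38 (lowest, median and highest) in female WT and 10.99, 11.14 and 11.38 in female KO. In male WT its 5 values were 10.71, 11.15, 11.17, 11.11 and 11.15, and in male KO it ranged from 10.88 through 11.07 to 11.31. The groups overlapped, and male WT replicate 2 was the lowest of all arrays. The difference, KO minus WT, was 0.01 (SE 0.09, 95% interval -0.17 to 0.20) in females and -0.01 (SE 0.09, -0.20 to 0.19) in males. The fatty acid carrier Fabp1 differed by -0.02 in both sexes, with intervals of -0.14 to 0.09 and -0.14 to 0.10. The carnitine carrier Slc25a20, Cpt2, which remakes acyl-CoA inside the mitochondrion, and Crot, the peroxisomal octanoyltransferase, lay between -0.08 and 0.13 in both sexes.

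Ppara, the receptor itself, was 9.47, 9.64 and 9.92 in female WT (lowest, median, highest) and 9.36, 9.68 and 9.86 in female KO. In male WT it was 9.34, 9.47, 9.50, 9.78 and 9.58, and in male KO 9.18, 9.49 and 9.81. These 4 ranges overlap almost whole, with differences of 0.01 (SE 0.10) in females and -0.04 (SE 0.11) in males. Its coactivator Ppargc1a differed by 0.08 (SE 0.09) in females and -0.03 (SE 0.10) in males. Fgf21, the fasting hormone, was 4.33, 4.70 and 5.72 in female WT, 3.99, 4.73 and 5.00 in female KO, 4.60, 4.56, 4.62, 4.75 and 4.64 in male WT, and 4.47, 4.64 and 4.80 in male KO. Those values lie within or close to the signal that Xist gave in males, so a level of Fgf21 above background was not shown, and its differences of -0.25 (SE 0.16) in females and 0.00 (SE 0.17) in males are uncertain. The carnitine acetyltransferase Crat, at 3.88 to 4.61 over all arrays, has the same limit.

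Pdk4 restrains glucose oxidation by phosphorylating pyruvate dehydrogenase. It was 6.63, 7.09 and 7.55 in female WT and 7.32, 7.77 and 7.86 in female KO (lowest, median, highest). In males the WT values were 7.09, 7.78, 6.59, 7.63 and 7.33, and the KO values ran from 6.15 through 6.96 to 7.72. Among females 5 of 6 KO arrays lay above every WT array, whereas the male groups overlapped. The KO minus WT difference was 0.60 (SE 0.21, adjusted p = 0.795, limma) in females and -0.27 (SE 0.22) in males, neither of which passed. A further probe set of Pdk4 gave 0.42 in females and -0.05 in males. Its mean of 4.63 lies within the signal that Xist gave in males, so these differences are uncertain.

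For 3 of the 5 thioesterases, Acot2, Acot3 and Acot4, the difference between KO and WT was positive in females and negative in males, and for Acot1 and Acot8 it was negative in both. None passed the test. In females Acot3, a peroxisomal thioesterase for long chains, read 0.64 (SE 0.21, adjusted p = 0.705) and Acot4, a peroxisomal thioesterase for dicarboxylic acids, 0.28 (SE 0.09, adjusted p = 0.66), with 2 and 4 of 6 KO arrays above every WT array. In males the cytosolic enzyme Acot1 read -0.52 (SE 0.19, adjusted p = 0.719), with 5 of 6 KO arrays below every WT array, and the mitochondrial enzyme Acot2 -0.24 (SE 0.11, adjusted p = 0.794), with 4 of 6. Ehhadh, the bifunctional enzyme of the peroxisomal cycle, read -0.31 (SE 0.11, adjusted p = 0.687) in males and 0.03 (SE 0.10) in females. Over the average of the sexes the smallest p belonged to Acot1, at -0.34 (SE 0.13, adjusted p = 0.643).

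Whether the KO effect differed between the sexes was tested directly, as the female difference minus the male difference. None of the 31 genes passed (0 called, against 0.0104% of all probe sets; smallest adjusted p = 0.869, limma). The 5 with an unadjusted p under 0.05 were Acot3 at 1.01 (SE 0.30), Acot4 at 0.43 (SE 0.13), Acot2 at 0.39 (SE 0.15), Pdk4 at 0.87 (SE 0.31) and Ehhadh at 0.33 (SE 0.15), beside 5.14% of all probe sets. All 5 were positive, and their adjusted p ranged up to 0.962. The male values of Acot3, at 4.74 to 5.74, overlap the 4.14 to 5.22 that Xist gave in males, so its difference in males, sign included, and its difference of effects are uncertain.

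Between the sexes, averaged over the genotypes, 8 of the 31 genes were higher in females and 0 were lower. Of all probe sets 10.5% were called in this comparison, 5.96% as higher and 4.55% as lower in females, and among symbols as bright as the median gene of the list 249 of 715 were called. The 8 were the thioesterases Acot1, Acot2, Acot3 and Acot4, the peroxisomal Ehhadh, the mitochondrial long-chain dehydrogenase Acadl, the coactivator Ppargc1a and the pantetheinase Vnn1. The median log2 difference over the 31 genes, females minus males, was 0.05 against -0.01 over all probe sets, so the list as a whole lay close to the array and a few genes stood far from it. For 5 genes every female array lay above every male array, which held for 0.787% of all probe sets.

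**Figure D2:**
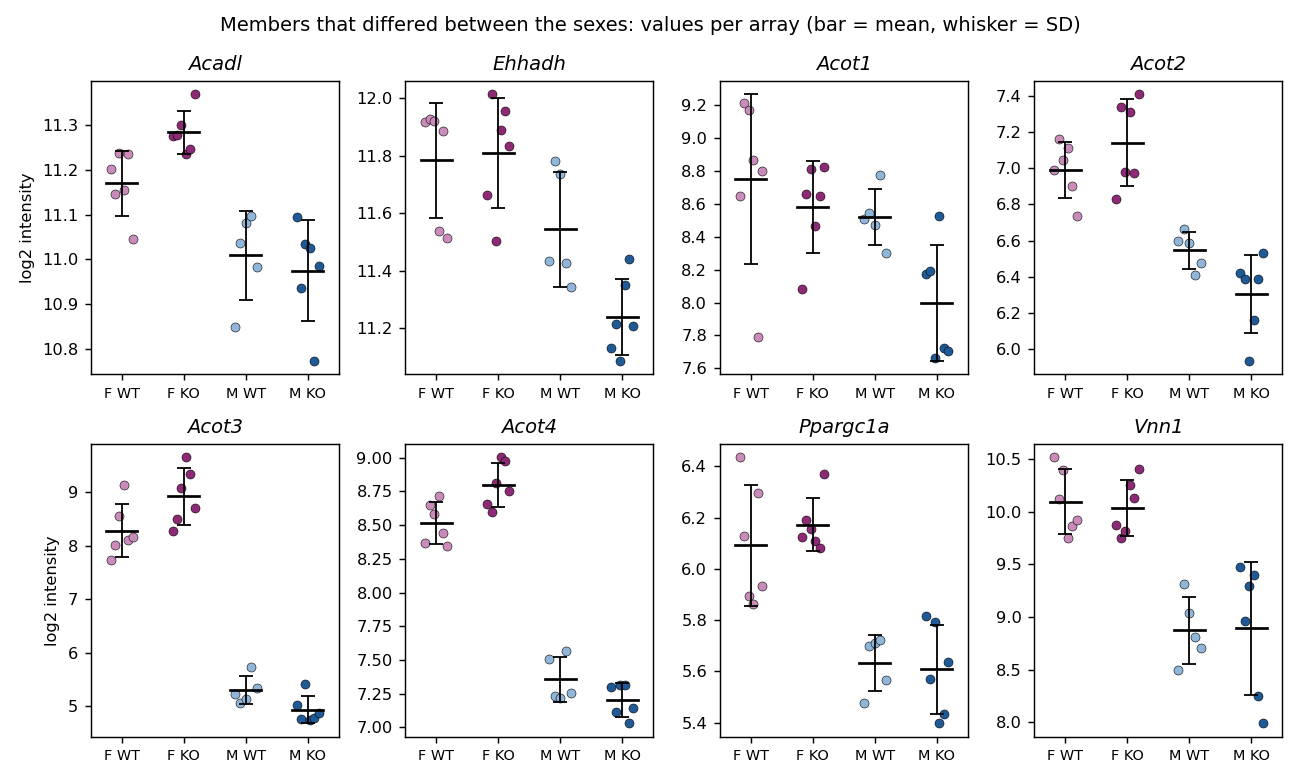
Each panel shows the log2 intensity (vertical axis, not starting at 0) of 1 gene in every array of the groups female WT, female KO, male WT and male KO, with the group mean as a bar and the SD as whiskers. For Acot2, Acot3, Acot4, Ppargc1a and Vnn1 all 12 female points lie above all 11 male points, while those of Acot1 overlap.

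Acot3 differed most. It was 7.73, 8.13 and 9.12 in female WT (lowest, median, highest) and 8.26, 8.88 and 9.65 in female KO. In male WT it was 5.24, 5.07, 5.14, 5.74 and 5.34, and in male KO 4.74, 4.83 and 5.41. The lowest female array thus stood about 2 log2 units above the highest male array. The genotype-averaged difference was 3.48 (SE 0.15), an 11.2-fold ratio of intensities (adjusted p = 3.62e-16, limma). Male values overlap the signal that Xist gave in males, so the male level and the ratio are uncertain, while the order of the sexes rests on values well clear of each other.

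Acot4 was 8.34, 8.51 and 8.72 in female WT and 8.60, 8.78 and 9.01 in female KO. In male WT it was 7.51, 7.23, 7.22, 7.57 and 7.25, and in male KO 7.03, 7.22 and 7.31. Females were higher by 1.38 (SE 0.06), or 2.60-fold (adjusted p = 1.86e-15, limma), again with no overlap. Acot2 was 6.73, 7.02 and 7.16 in female WT, 6.83, 7.14 and 7.41 in female KO, 6.60, 6.67, 6.59, 6.41 and 6.48 in male WT, and 5.94, 6.39 and 6.53 in male KO. The highest male array lay just under the lowest female array, and the difference was 0.64 (SE 0.08), or 1.56-fold (adjusted p = 5.46e-07, limma).

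Acot1 showed the weakest of the 4 differences. It was 7.79, 8.83 and 9.21 in female WT, 8.08, 8.65 and 8.82 in female KO, 8.51, 8.54, 8.47, 8.78 and 8.30 in male WT, and 7.67, 7.95 and 8.53 in male KO. Female WT and male WT overlapped widely and 6 of 12 female arrays lay above all males, for a difference of 0.40 (SE 0.13, adjusted p = 0.0464, limma). That call stood in only 6 of the 23 fits that left out 1 array: those without female WT replicate 5, female KO replicate 1, male WT replicate 5 and male KO replicates 1, 2 and 4. Without any 1 of the other arrays the adjusted p rose to at most 0.0869. Without the 3 arrays with muscle signal it was 0.127, and without the 3 with bile duct signal 0.0573. The last thioesterase, the peroxisomal Acot8, read 0.04 (SE 0.06).

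Acot1 to Acot4 are close paralogs that lie side by side, so a probe set of one gene can take signal from another, and their separate values are uncertain to that extent. On mouse chromosome 12 (RefSeq GRCm38.p6) the protein-coding order is Heatr4, Riox1, Acot2, Acot1, Acot4, Acot3, Acot5, Acot6, Dnal1 and Pnma1. The neighbours, looked up after the values of the 4 were seen, did not pass: Acot5 read -0.10 (adjusted p = 0.307), Riox1 0.20 (adjusted p = 0.0724), Dnal1 0.08 and Pnma1 0.08. Acot6 and Heatr4 were not analysed here. Acot5, the paralog next to Acot3, read 4.99 to 5.54 over all arrays, near the signal of Xist in males. Dnal1 read 3.04 to 3.75 and Pnma1 2.94 to 3.64, within or close to the 2.53 to 3.69 of Y-linked probe sets in females. For Acot5, Dnal1 and Pnma1 a difference between the sexes could therefore have been missed. Acot1 to Acot4 were all called between the sexes, but the call of Acot1 did not stand in most fits that left out 1 array. The 250 bases before an annotated start of each of these 4 genes are shown on the plus strand: chr12:83987611-83987860 (Acot2), chr12:84009252-84009501 (Acot1), chr12:84038129-84038378 (Acot4) and chr12:84051894-84052143 (Acot3). Capitals mark the hexamer AGGTCA, the core bound by nuclear receptors including PPAR-alpha, or its complement TGACCT.
Acot2: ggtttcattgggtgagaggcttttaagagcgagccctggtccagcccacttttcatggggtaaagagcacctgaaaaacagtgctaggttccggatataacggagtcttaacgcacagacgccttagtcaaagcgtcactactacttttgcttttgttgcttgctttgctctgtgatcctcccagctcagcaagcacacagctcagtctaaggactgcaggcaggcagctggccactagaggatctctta
Acot1: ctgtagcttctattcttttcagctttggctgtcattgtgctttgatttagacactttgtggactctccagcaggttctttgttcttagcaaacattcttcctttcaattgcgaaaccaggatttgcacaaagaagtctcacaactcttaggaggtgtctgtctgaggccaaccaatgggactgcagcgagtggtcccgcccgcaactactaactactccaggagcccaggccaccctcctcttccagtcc
Acot4: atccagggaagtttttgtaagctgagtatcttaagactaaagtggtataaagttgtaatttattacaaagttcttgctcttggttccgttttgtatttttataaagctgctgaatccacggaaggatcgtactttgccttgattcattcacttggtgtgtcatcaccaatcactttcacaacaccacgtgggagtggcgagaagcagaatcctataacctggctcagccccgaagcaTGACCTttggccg
Acot3: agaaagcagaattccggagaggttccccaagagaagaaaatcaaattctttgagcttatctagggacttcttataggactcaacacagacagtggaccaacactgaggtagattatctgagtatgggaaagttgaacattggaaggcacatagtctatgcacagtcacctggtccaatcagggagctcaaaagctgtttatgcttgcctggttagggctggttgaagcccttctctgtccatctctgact

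The hexamer stood 13 bases before the start of Acot4 and was absent from the printed stretches of the other 3. In Acot3 it lay just after the start, in chr12:84052154-84052175.
Acot3 after the start: ttagctctTGACCTtgtctgtc
Searched on both strands of 300 bases, 250 before to 50 after the start, AGGTCA occurred in 16.3% of 32851 RefSeq promoter windows. Of the 31 genes 27 were in that table and 5 of the 27 held it, namely Acadvl, Acot3, Acot4, Cpt1a and Fabp1. A gene was counted if any of its windows matched, so the shares of genes and of windows given here are not directly comparable. The direct repeat of AGGTCA with 1 base between the copies, the form PPAR-alpha binds together with its partner RXR, was in 0.0396% of windows and in 0 of the 27 genes. As AGGNCA, with a free base in each copy, the same repeat was in 0.381% of windows and in 1 gene, Fabp1, at chr6:71199804-71199832 on the plus strand, shown with the match in capitals.
Fabp1: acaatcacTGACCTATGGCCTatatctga
Fabp1 itself did not pass between the sexes (-0.01, SE 0.04). A match of letters is not a binding site, and enhancers lie outside these windows.

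Vnn1 releases cysteamine from pantetheine and is a known PPAR-alpha target in liver. It was 9.75, 10.02 and 10.52 in female WT, 9.75, 9.999 and 10.41 in female KO, 8.49, 9.32, 9.04, 8.81 and 8.70 in male WT, and 7.99, 9.13 and 9.47 in male KO. All 12 female arrays exceeded all 11 male arrays, and the difference was 1.18 (SE 0.15), or 2.27-fold (adjusted p = 1.82e-06, limma). The male KO group was the most scattered, with an SD of 0.63 against 0.26 to 0.32 in the other groups.

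Ppargc1a was 5.86, 6.03 and 6.44 in female WT, 6.08, 6.14 and 6.37 in female KO, 5.48, 5.70, 5.71, 5.72 and 5.56 in male WT, and 5.40, 5.60 and 5.81 in male KO. No female array fell to the male range, and the difference was 0.51 (SE 0.07), or 1.42-fold (adjusted p = 4.23e-06, limma). Ppara read 0.13 (SE 0.07, adjusted p = 0.313), Fgf21 0.11 (SE 0.12, adjusted p = 0.641) and Pdk4 0.23 (SE 0.16, adjusted p = 0.397). For each of these 3 the female and male arrays overlapped.

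Ehhadh was 11.51, 11.90 and 11.93 in female WT, 11.50, 11.86 and 12.01 in female KO, 11.43, 11.78, 11.74, 11.43 and 11.34 in male WT, and 11.09, 11.21 and 11.44 in male KO. Of 12 female arrays 8 lay above every male array, and the male KO arrays were the lowest as a group. The difference was 0.40 (SE 0.07), or 1.32-fold (adjusted p = 0.000279, limma). The peroxisomal thiolase Acaa1b read -0.07 (SE 0.06) and did not pass.

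Acadl, the mitochondrial long-chain acyl-CoA dehydrogenase, was 11.05, 11.18 and 11.24 in female WT, 11.23, 11.28 and 11.37 in female KO, 10.85, 11.04, 11.08, 11.10 and 10.98 in male WT, and 10.77, 11.01 and 11.10 in male KO. The scatter was small and 11 of 12 female arrays exceeded all males, for a difference of 0.23 (SE 0.05), or 1.18-fold (adjusted p = 0.000632, limma). It was the only 1 of the 8 under the change of 20% that the study's own summary used.

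The rest of the oxidation machinery did not pass between the sexes. In the cycle, the very-long-chain dehydrogenase Acadvl read -0.03 (SE 0.04), the subunits of the trifunctional protein Hadha and Hadhb 0.01 (SE 0.05) and 0.00 (SE 0.04), and the thiolase Acaa2 -0.09 (SE 0.05). Acads, the short-chain dehydrogenase, read -0.19 (SE 0.13) and passed only when male KO replicate 3 was left out (adjusted p = 0.0455, limma), at -0.29. All 6 measured genes of uptake and the carnitine shuttle missed the test, with Cpt1a at 0.10 (SE 0.06, adjusted p = 0.397). The 4 auxiliary enzymes for unsaturated chains missed it too, the nearest being Eci2 at 0.15 (SE 0.06, adjusted p = 0.15). The electron transfer subunits Etfa and Etfb and the dehydrogenase Etfdh, which pass electrons to ubiquinone, read 0.02, 0.08 and 0.02, with adjusted p of 0.215 for Etfb and above that for the others. Where a gene had more than 1 probe set the readings could differ: the dimmer probe set of Crot read -0.20 (adjusted p = 0.0208) beside 0.05 for the brighter.

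Within each genotype the sexes were compared again. Among symbols as bright as the median gene of the list, 132 of 715 were called in WT and 148 of 715 in KO, in either direction. In WT 5 of 31 genes were higher in females (4.25% of all probe sets were called, 2.54% as higher): Acot3 by 2.98, Vnn1 by 1.22, Acot4 by 1.16, Ppargc1a by 0.46 and Acot2 by 0.44. In KO 7 of 31 were higher (4.85% of all probe sets, 3.21% as higher): Acot3 by 3.99, Acot4 by 1.60, Vnn1 by 1.14, Acot2 by 0.83, Ehhadh by 0.57, Ppargc1a by 0.56 and Acadl by 0.31. Ehhadh and Acadl passed in KO and read 0.24 and 0.16 in WT without passing, but the difference between the genotypes, which is the same contrast as the difference of KO effects above, passed for no gene. Without the 3 arrays with muscle signal Acot2 no longer passed in WT (adjusted p = 0.0625, limma). Without the 3 arrays with bile duct signal Acot1 (adjusted p = 0.0474) and Pdk4 (adjusted p = 0.0326) passed in KO as well. Acot1 also passed in KO without female WT replicate 5, female KO replicate 1 or male KO replicate 4, and Pdk4 without male KO replicate 3 or 4. With the filter on dim probe sets, or with only the compared groups fitted, Acot1 passed in KO too, and with array weights Pdk4 did.

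**Figure D3:**
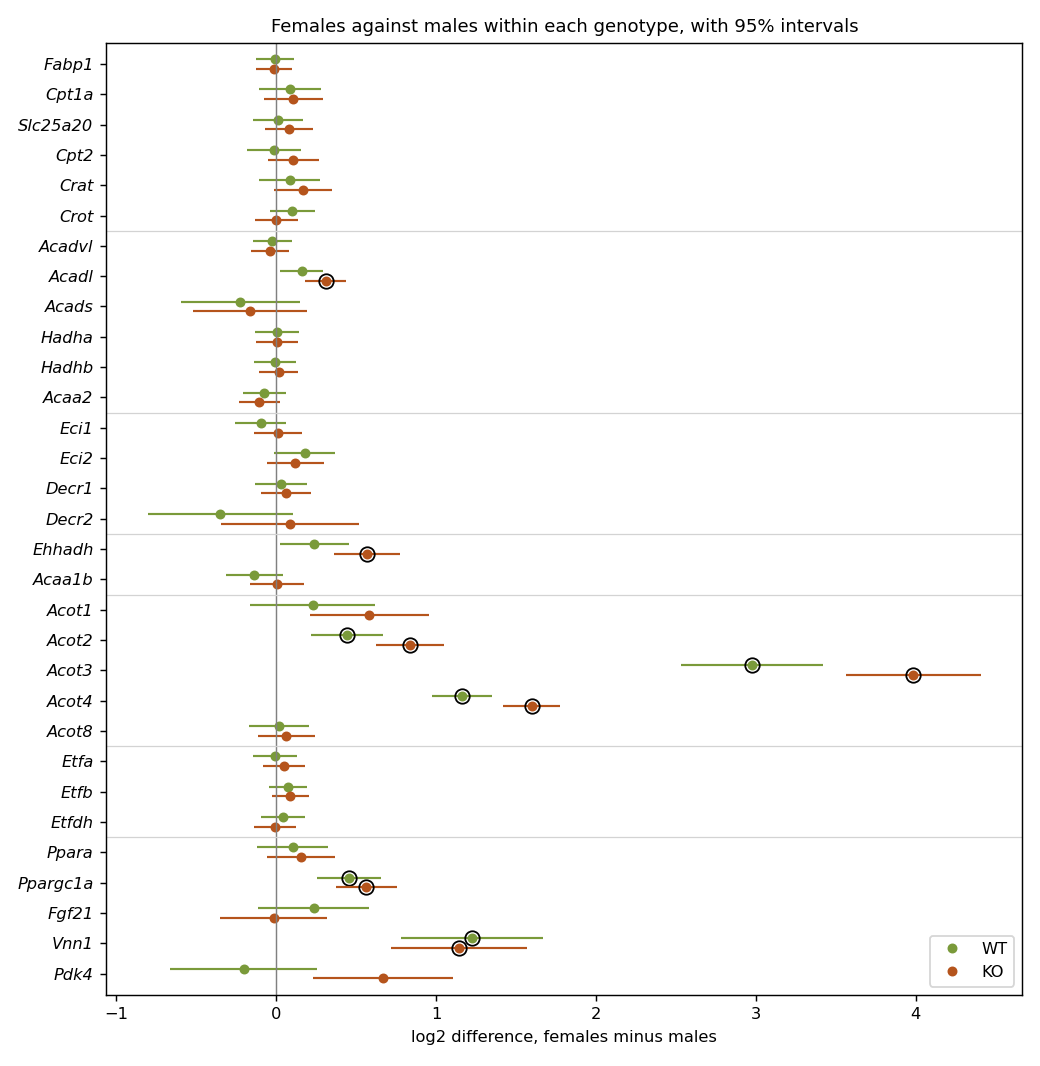
The log2 difference, females minus males (horizontal axis), is plotted for each of the 31 genes with its 95% confidence interval, in WT and in KO, and a black ring marks an adjusted p under 0.05. Rings sit on 5 genes in WT and 7 in KO, all to the right of 0, and Acot3 lies farthest out at 2.98 and 3.99.

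Other cell types also differed between the sexes, and their part in these results was not tested. Of all probe sets 5.96% were called higher in females, and of symbols as bright as the median gene of the list 249 of 715 were called in either direction. Of 6 measured Kupffer cell and macrophage markers 5 were higher in females, and their summed signal was 11.17 to 11.46 in females against 10.60 to 11.05 in males on the log2 scale. Of 6 endothelial markers 3 were higher in females, of 7 stellate cell and fibroblast markers 3, and of 5 lymphocyte markers 2. None of the 4 measured hepatocyte markers passed. The bile duct marker Sox9, 1 of 5 in its list, and the pancreatic gene Cela1, 1 of 4, were lower in females, at -0.34 and -0.47. Of the red cell list only Alas2 was measured, and it was lower in females, at -2.74. No muscle marker (5 measured) and no adipocyte marker (4 measured) passed. In bulk liver RNA, fewer cells of a type and less RNA per cell cannot be told apart.

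Arrays differed from each other across the list within groups. The pooled within-group SD was 0.06 for Fabp1 and Etfb and 0.07 for Acadvl, and it reached 0.43 for Pdk4, 0.42 for Decr2, the peroxisomal dienoyl-CoA reductase, 0.41 for Vnn1 and Acot3 and 0.36 for Acot1. Its median over the 31 genes was 0.15, the same as over all probe sets, while probe sets at least as bright as the median gene of the list had a median of 0.11. Male KO replicate 4 was the highest of its group for 15 of 31 genes, female KO replicate 6 for 13 and female WT replicate 2 for 12. The lowest positions fell most often to female KO replicate 3, for 13 genes, and to male WT replicate 2, for 12. Of these, female KO replicate 6 had muscle signal, and female KO replicate 3 and male KO replicate 4 had bile duct signal, whose part was not tested.

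**Figure D4:**
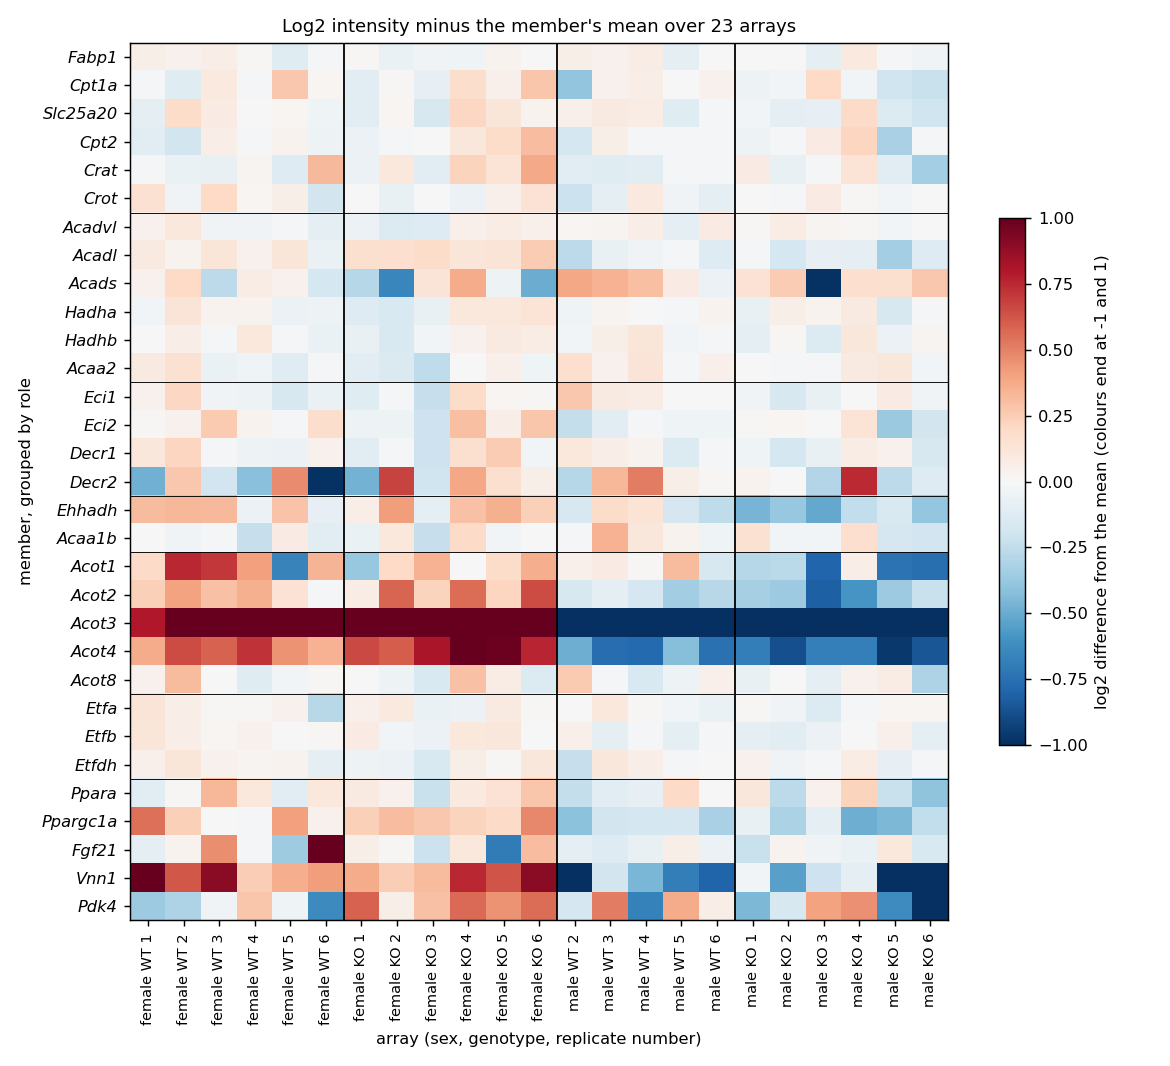
Each cell is the log2 intensity of 1 gene (rows, grouped by role) in 1 array (columns, by sex and genotype) minus that gene's mean over the 23 arrays, with colours ending at -1 and 1. The rows of Acot3 and Acot4 split between the female and male columns, and single dark cells mark arrays such as male KO replicate 3 for Acads.

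Genes of the same pathways outside the list were read from 6 further lists, chosen by function. The name of a list does not give the organelle of each gene in it. Between KO and WT 1 of 17 genes of the further mitochondrial list and 1 of 12 of uptake and acyl-CoA synthesis passed. None of the other 4 lists had a call. The share of all probe sets called was 0.0547% in females, 0.0313% in males and 0.0808% for the average. Eci3 of the mitochondrial list missed the test in females, at 0.85 (SE 0.17, adjusted p = 0.0592, limma). It passed with array weights, with the replicate block, without the 3 arrays with muscle signal and in 6 of 23 left-out fits. Abcd3 of the peroxisomal list missed it in males, at -0.59 (SE 0.12, adjusted p = 0.0776, limma), and passed without male WT replicate 6. Acad9, a mitochondrial dehydrogenase known mainly as an assembly factor of respiratory complex I, fell in females by 0.44 (SE 0.08, adjusted p = 0.0271, limma) and in the average by 0.37 (SE 0.06, adjusted p = 0.00208). Its values were 8.81 to 9.08 in female WT, 8.34 to 8.76 in female KO, 8.54 to 8.77 in male WT and 8.10 to 8.57 in male KO. The average call stood in all 23 fits that left out 1 array, and the call in females in 15, being lost without female WT replicates 1 to 4 or female KO replicates 1 to 4. The call in females also stood in only 6 of 11 other settings, being lost with equal array medians, only the compared groups, the adjusted plain test, the replicate block and the average over probe sets, where the adjusted p reached up to 0.329. Fabp2, a fatty acid-binding protein best known from intestine, fell in the average by 0.43 (SE 0.09, adjusted p = 0.0493), a call that stood in 4 of 23 such fits and whose adjusted p reached 0.132. These were the fits without female KO replicate 2 or 3, male WT replicate 6 or male KO replicate 4. It stood in 7 of 10 other settings, being lost with equal array medians, the adjusted plain test and the replicate block (adjusted p up to 0.214). Without the 3 arrays with muscle signal neither the call of Acad9 in females nor that of Fabp2 stood, and without the 3 with bile duct signal that of Acad9 in females did not. Why Acad9 and Fabp2 read lower in KO was not tested. Their positions in the genome relative to P2ry13, and that of Abcd3, are not given here. Any part of DNA linked to the targeted gene was not tested, and the allele and strain are not given in the labels.

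Between the sexes these neighbouring lists held more calls, in both directions. As above, 5.96% of all probe sets were called higher and 4.55% lower in females in this comparison. Of 13 further peroxisomal genes 2 were higher and 6 lower in females. Abcd2, the transporter of very-long-chain acyl-CoA into peroxisomes, read 8.80 to 9.46 in females and 4.37 to 5.50 in males, a difference of 4.12 (SE 0.12, adjusted p = 2.09e-20, limma), but the male values overlap the signal of Xist in males, so the male level and the size of the difference are uncertain. Nudt7, a peroxisomal hydrolase of coenzyme A, read 10.28 to 11.22 in females and 11.49 to 12.26 in males, lower in females, at -1.20 (SE 0.10, adjusted p = 4.71e-10). Of 17 genes of the further mitochondrial list 5 were higher and 2 lower, with Eci3, an enoyl-CoA isomerase, at 2.07 (SE 0.13) and Acot13 at 0.28 (SE 0.05). Eci3 read 4.07 to 4.96 in males, within or below the signal of Xist in males, so its male level and the size of its difference are uncertain. Of 12 genes of uptake and acyl-CoA synthesis 3 were higher, among them the fatty acid translocase Cd36 at 1.21 (SE 0.16) and the synthetase Acsl3 at 0.81 (SE 0.12).

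Of 19 further PPAR-alpha targets 8 were higher in females and 1, Retsat, was lower, beside 13.6% of all symbols called in either direction. Cyp4a14, a fatty acid omega-hydroxylase, read 10.20 to 11.37 in females and 6.46 to 9.95 in males, higher by 2.57 (SE 0.24), or 5.93-fold (adjusted p = 6.52e-09, limma), and the desaturase Fads2 was higher by 0.32 (SE 0.05). The median difference over the 19 was 0.01. Of 22 partners and regulators 4 were higher and 1 lower, with Klb, the co-receptor for FGF21, at 0.41 (SE 0.06) and Lpin1, a coactivator and phosphatidate phosphatase, at 0.77 (SE 0.12). Of the ketone synthesis genes Bdh1 was higher by 0.26 (SE 0.07, adjusted p = 0.0133) and Acat1 read 0.16 (SE 0.06, adjusted p = 0.0612).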

How the data were processed

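The 23 liver arrays were deposited as 1 table of 38385 probe sets, whose values are linear intensity; RMA is named per the submitters' processing notes, with settings not given in the sources used here. Values were taken to log2 with no further scaling. In R 4.3.3, limma 3.58.1 fitted 1 mean per group over all arrays (19 residual and 7.61 prior degrees of freedom), with Benjamini-Hochberg adjustment over all probe sets. Mice are not described, so p-values measure the spread between these samples. Symbols came from the platform annotation: 24478 probe sets had 1 symbol, 65 several and 13842 none. All listed genes could be named; genes called in any comparison, those with the smallest p and Ppara, Ppargc1a, Fgf21, Cpt1a and Pdk4 are given by array. From each further list, called genes between KO and WT and up to 2 with the smallest p were named. The genes, lists and tests were chosen with earlier results of these data known. Alternatives covered scaling, filter, weights, variance, test, probe sets, block and left-out arrays, and 2 were added after the data were seen. Of 33 pairs of same-numbered arrays 3 correlated above 0.1. Differently numbered pairs were not compared and the labels do not explain the numbers, so whether they pair arrays is not known. The main fit used no pairing. Code was tested on simulated data. Promoters are from RefSeq (GRCm38.p6).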

Additional observations from a re-analysis of the deposited data

Results flagged for a closer look

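Within groups, an array was singled out by Dixon's test, from its gap to the nearest other array divided by the range of the group. That ratio had to exceed the 95% critical value, 0.71 for 5 arrays and 0.625 for 6. That happened for 8 of 124 combinations of gene and group, and chance gives about 1 in 20. Male KO replicate 3 had the lowest Acads (8.68, next 9.81) and the lowest Etfa (11.94, next 12.05) of its group, and the highest Crot (12.90, next 12.82). Female WT replicate 6 had the highest Crat (4.55, next 4.25) and the lowest Etfa (11.81, next 12.10) of its group. Male KO replicate 4 had the highest Decr2 (8.87, next 8.16), and male WT replicate 2 the lowest Cpt1a (10.71, next 11.11). Female WT replicate 2 had the highest Acot8 (9.08, next 8.80).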

How the results depend on the processing

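Between KO and WT, 0 genes of the list were called under every adjusted alternative and without any 1 array (0 to 0). The plain test of the study's design text took an unadjusted p under 0.05 and a change over 20%, with no correction for the number of tests. It gave 2 in females (Acot4, Pdk4), 3 in males (Acot1, Acot3, Ehhadh) and 1 for the average (Acot1). For the difference of effects it gave 5 (Acot2, Acot3, Acot4, Ehhadh, Pdk4). The share of all probe sets that pass this rule was not counted. Whether the list holds more such genes than the array does is therefore not known. Between the sexes, Acot2, Acot3, Acot4, Ehhadh, Ppargc1a and Vnn1 kept their call for the average over genotypes in all 10 alternatives and 23 left-out fits. Acot1 kept it in 6 of 10, losing it under quantile normalization, array weights, a trended robust variance and the adjusted plain test. Acadl lost it only where a change of 20% was required. In the adjusted plain test Ppargc1a lost its call in WT (adjusted p = 0.0932) and Vnn1 in KO (0.0602). With the replicate number as a block, 8 genes were called for the average, 5 in WT, 7 in KO and 0 between KO and WT, as without it. Averaging over probe sets per gene turned the sign of uncalled values. Moves of more than 1 SE took Crot to -0.0222 (KO, males), 0.00623 (difference of effects), -0.0762 (sexes, average), -0.0793 (WT) and -0.0731 (KO), Hadha to -0.11 (difference of effects) and -0.0639 (sexes, KO), Hadhb to -0.0529 (sexes, average) and Uty to -0.10 (difference of effects). Smaller moves turned further values of Crot, Hadha, Hadhb, Decr1, Ppara and Bdh1, such as Ppara to 0.0582 (KO, males) and -0.0895 (difference of effects). The number of arrays limits precision.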

Other observations

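Reference lists outside fatty acid oxidation were read in the same arrays. Of 11 fasting-induced genes of other pathways none passed between KO and WT. Between the sexes 2 were higher and 1 lower in females, where 5.96% of all probe sets were called higher and 4.55% lower. Fkbp5, a glucocorticoid-induced immunophilin, read 7.15 to 8.86 in females and 6.15 to 7.51 in males, higher by 1.22 (SE 0.15, adjusted p = 1.44e-06, limma). Asns, asparagine synthetase, read 3.91 to 4.77 in females and 5.05 to 7.50 in males, lower in females, at -1.87 (SE 0.17, adjusted p = 9.01e-09). The female values of Asns lie within or below the signal that Xist gave in males.

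Of 7 measured lipogenic genes, which feeding induces, 3 were higher in females and none passed between KO and WT. Beside them, 5.96% of all probe sets were called higher in females. Among symbols as bright as the median gene of the oxidation list, 249 of 715 were called between the sexes in either direction. Fatty acid synthase, Fasn, read 7.55 to 8.42 in females and 6.57 to 7.56 in males, higher by 0.85 (SE 0.11, adjusted p = 2.21e-06, limma). The elongase Elovl6 read 8.74 to 9.70 in females and 8.38 to 8.97 in males, higher by 0.75 (SE 0.09, adjusted p = 3.83e-07). The labels give no feeding state for the mice.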
